A study of Mus musculus with 6 samples.

Results

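The response of Th2-1st cells to restimulation through the T cell receptor (TCR) was read from a pair of Affymetrix arrays. One was of stimulated and the other of unstimulated cells, both transfected with control siRNA (their labels also say mock-transfected). Th2-1st cells are effector Th2 cells grown from splenic CD4 T cells of C57BL/6 mice, by stimulation with immobilized anti-TCR mAb and anti-CD28 mAb and culture for 5 days in all with 25 U/ml IL-2 and, to drive the Th2 fate, 100 U/ml IL-4. RNA was taken after a further 4 h on immobilized anti-TCR mAb, begun 24 h after the transfection, or from cells left without the antibody. They were polyclonal cells in culture that had already been activated once, so the unstimulated array shows effector cells that were not restimulated, and not naive cells. A gene was represented by 1 probe set that named no other gene, the one whose log2 signal averaged highest over the 6 arrays of the series. A gene was described where the higher of its pair of signals exceeded that array's median over all probe sets. This held for 11022 of 18194 genes. The other 4 arrays, of Th2-1st cells with GATA3 siRNA and of Th2-4th cells, fully developed Th2 cells made by further cycles of stimulation with IL-4 blocked, are used below for comparison only.

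Engagement of the TCR by antibody starts a tyrosine kinase cascade that raises intracellular calcium and activates the Ras-MAPK and protein kinase C pathways. These signals bring NFAT, AP-1 and NF-kB transcription factors to cytokine genes, and in Th2 cells GATA3 holds the Il4, Il5 and Il13 genes open to them. Effector cells answer within hours, with mRNAs of cytokines, of surface molecules for contact with other cells and of inhibitors that limit the same signals.

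With 1 array for each condition there is no replicate to judge a difference by, and no p-value is given. Genes over 2-fold or under 0.5-fold are called higher or lower, which describes these arrays. The values are linear signals in arbitrary units, scaled by the authors so that the mean of an array without its lowest and highest 2% of probe sets is 500. Pairs of signals in the text give the unstimulated array first and the stimulated array second. The median signal was 62.5 on the unstimulated array and 61.8 on the stimulated array. As a description of error, the spread (a robust SD of log2 ratios over genes whose signals were similar) was 0.85 at mean signals from 68.0 to 107 and 0.45 at mean signals above 4980. It includes real changes. In the 5299 genes with another probe set described, the log2 ratios of both differed by a median of 0.33, with a 95th percentile of 1.49. The 9 hybridization control probe sets, whose transcripts are added to each sample in a fixed amount, had log2 ratios from 0.27 to 0.64 between these arrays. Ratios near 0 carry that uncertainty of scale, and its part in the results was not tested. The mRNA of Hprt, the reference gene of the study's PCR, read 10312 then 11263, a log2 ratio of 0.13. The T cell markers Cd3d (14384 then 14428) and Thy1 (12915 then 11307) were far above the median on both arrays, and the 9 T cell identity markers summed to 64544 then 61714. Of the same list, Cd4 was dimmer (335 then 222), and Bcl11b was past 2-fold lower (6604 then 3104, a log2 ratio of -1.09). With the mean over its probe sets Bcl11b was at -0.95. Of 10 mast cell and basophil, 12 myeloid and 9 B cell markers measured, 1, 4 and 5 were described, and the brightest of them, Cpa3, read 562 then 255. The 12 myeloid markers summed to 528 then 492, the 9 B cell markers to 442 then 416 and the 10 mast cell and basophil markers to 681 then 383. Outside these lists, the immunoglobulin heavy chain gene Ighm read 5856 then 5964, far above the sum of the B cell markers. Of the listed markers, Lyz2, Cd14, Cd79a, Mcpt8 and Kit lay below the array medians. Others were dim but above the median on at least 1 array. These included Adgre1 (106 then 147), Csf1r (100 then 84.6), Cd68 (95.2 then 67.6), Fcgr3 (68.8 then 62.5) and Cd79b (115 then 44.6). Of 10 stromal and erythroid markers 2 were described, Pecam1 (254 then 112) and the epithelial adhesion gene Epcam (611 then 2781), and the list summed to 969 then 3064, most of it Epcam. Col1a1, Cdh5 and Hba-a1 of that list were below the medians. The 9 CD8 T and NK cell markers summed to 712 then 945 and 4 were described, with Cd8b1 at 342 then 313 and Eomes, which CD4 T cells can also express, at 44 then 275. The part of other cells in the results was not tested. In bulk RNA, fewer cells with an mRNA and less of it per cell cannot be told apart.

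Of 11022 genes, 1178 (10.7%) had stimulated signals over 2-fold the unstimulated ones and 1844 (16.7%) had signals under 0.5-fold. The median log2 ratio of the genes described was -0.15. The lower genes were the more numerous among the genes described, but not with no filter on low signals, where 3191 of 18194 genes were higher and 3067 lower. After signals under the array median are raised to that median, here called the floored ratio, which keeps ratios against very dim signals from leading, 128 genes were above a log2 ratio of 3 and 45 below -3. On that scale 43 genes were above 5 and 0 below -5. Of the higher genes, 429 were below the median without stimulation and 440 of the lower genes were below it after stimulation. Those 429 and 440 genes entered through the array on which they were high, so their direction was fixed by the rule. Near the edge of the rule, Fggy (62.6 then 53.8) and Cd226 (62.6 then 23.8) were just inside it, and Amn (39.8 then 61.7) just outside. In genes with another probe set described, it was past 2-fold in the same direction for 314 of 461 higher and 535 of 815 lower genes, and past it in the opposite direction for 4 and 7.

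**Figure D1:**
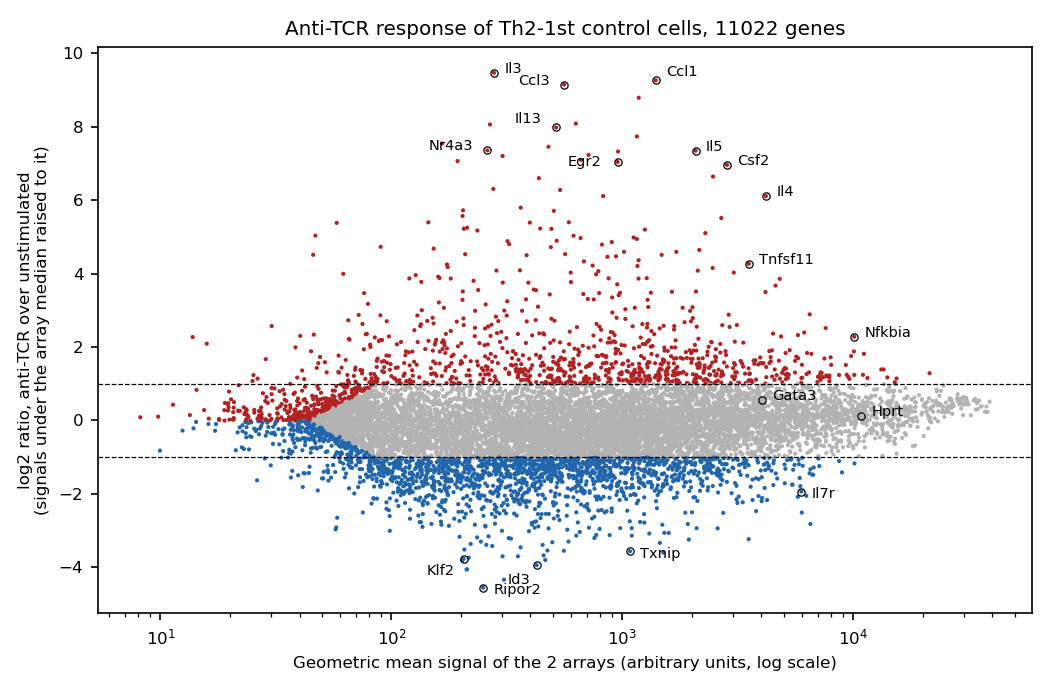
Floored log2 ratio of anti-TCR over unstimulated Th2-1st control cells (vertical axis) against signal, as the geometric mean over the pair (horizontal axis, arbitrary units, log scale), 1 point for each of the 11022 genes described. Red points are over 2-fold and blue points under 0.5-fold before the floor, so those drawn inside the dashed 2-fold lines at low signals had 1 signal below the array median. The cytokine and chemokine genes Il3, Ccl1, Ccl3, Il5 and Il4 reach 6.11 to 9.47, while Ripor2, the lowest, is at -4.55.

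Cytokine, TNF family and chemokine genes made up much of the head of the ranking, together with transcription factors, receptors and signalling genes. Of the 15 genes with the largest floored ratio, 11 belonged to the lists of cytokines, TNF family ligands and chemokines used here, and of the 43 genes above 5 on that scale, 22 did, beside 56 of all 11022 genes described. Only 3 of the 15 and 16 of the 43 had both signals above the array median. The rest were described because they were high on the stimulated array, so their direction was fixed by the rule. The first of the ranking was Il3, a growth factor for mast cells, basophils and other myeloid cells, which read 1.75 then 44252. Ccl1, the ligand of CCR8, read 50.7 then 38354. Ccl3 and Ccl4, chemokines that attract T cells and macrophages, read 8.84 then 35396 and 50.2 then 27604. The mRNA of these 4 genes was below the array median in unstimulated cells and far above it after 4 h. The remaining genes of the 15 that are in no ligand list were Inhba, the beta A subunit of activins (79.2 then 16840.3), Nr4a3, Rgs16 and Olr1, a receptor for oxidized low-density lipoprotein (9.97 then 9198). Inhba codes for a secreted growth factor too, although it was not listed. Its other probe set lay below the median on both arrays.

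All 11 genes measured in the list of cytokines made by Th2 cells were over 2-fold higher, with a median log2 ratio of 7.34 (7.10 with the floor) beside -0.15 over all genes described. Of these 11 genes, 6 were below the array median without stimulation. Those 6 were described because they were high on the stimulated array, so their direction was fixed by the rule. Il4, the cytokine that drives Th2 differentiation, read 504 then 34734, a log2 ratio of 6.11. Il5, which supports eosinophils, read 163 then 26465 (7.34). Il13, which acts on epithelium and goblet cells, read 16.9 then 15757 (floored log2 ratio 7.98). Il4 and Il5 lay above the array median in the unstimulated cells and Il13 below it, and levels cannot be compared between different probe sets. Il31, a cytokine linked to itch, read 2.35 then 11671 and Il6, a cytokine of inflammation, 20.9 then 10942. Csf2 and Il24 read 254 then 31614 and 247 then 24642, and Il10, which restrains immune responses, 390.4 then 13392. Il21, which helps B cells, read 51.1 then 8554. Il9 stayed near the array median, at 4.38 then 93.1, and its floored log2 ratio was 0.57.

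Ligands of other T helper programmes were higher as well. Ifng, the main cytokine of Th1 cells, read 23.3 then 16961, and Il2, the T cell growth factor, 4.28 then 16666, floored log2 ratios of 8.08 and 8.06. Both were below the array median in unstimulated Th2-1st cells. In this list of other T cell cytokines and growth factors, 21 of 24 measured genes were described, 14 were higher and 3 lower. These shares were 66.7% and 14.3%, beside 10.7% and 16.7% of all genes. Of the 14, 6 were described because they were high on the stimulated array, so their direction was fixed by the rule. Hbegf, a ligand of the EGF receptor, read 54.4 then 9367, and Tnf 90.3 then 3803. Il17a, the signature cytokine of Th17 cells, read 24.1 then 239. The lower genes were Il16, a chemoattractant for CD4 cells (2788 then 416), Ltb, a subunit of membrane lymphotoxin (8095 then 2708), and Bmp7 (172 then 69.6). Il16 and Ltb were thus well above the array median in unstimulated cells and lower after stimulation, opposite to Tnf and Lta (95.5 then 2514), whose products belong to the same family as that of Ltb.

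Of 10 TNF family ligand genes, 8 were higher and 1, Tnfsf13b, was lower (312 then 150.2), with a median log2 ratio of 3.69. Fasl, which triggers death of cells that carry Fas, read 118 then 3684. Tnfsf11, the RANK ligand that drives osteoclast formation, read 803 then 15455, and Tnfsf14 (LIGHT) 259 then 5330.1. Cd70, the ligand of CD27, read 30.2 then 1440.2. Cd40lg, through which helper T cells activate B cells, read 12.6 then 185, and Tnfsf4, the OX40 ligand, had a log2 ratio of 0.74.

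Of 22 chemokine genes measured, 14 were described and 12 of these were higher, 11 of them from a signal below the array median. Those 11 were described because they were high on the stimulated array, so their direction was fixed by the rule. Of the list's genes with both signals above the median, the median log2 ratio was -0.20. Beside Ccl1, Ccl3 and Ccl4, Cxcl2, a neutrophil attractant, read 15.4 then 4943, and Ccl5, the exception that was above the median without stimulation, 431 then 10758. Ccl22 and Ccl17, ligands of the Th2 cell receptor CCR4, read 43.5 then 189.7 and 36 then 72.1. Cxcl1 and Cxcl16 did not reach 2-fold, with log2 ratios of -0.20 and -0.33. The remaining 8 genes, among them Ccl2, Ccl20 and Cxcl9, lay below the median on both arrays.

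**Figure D2:**
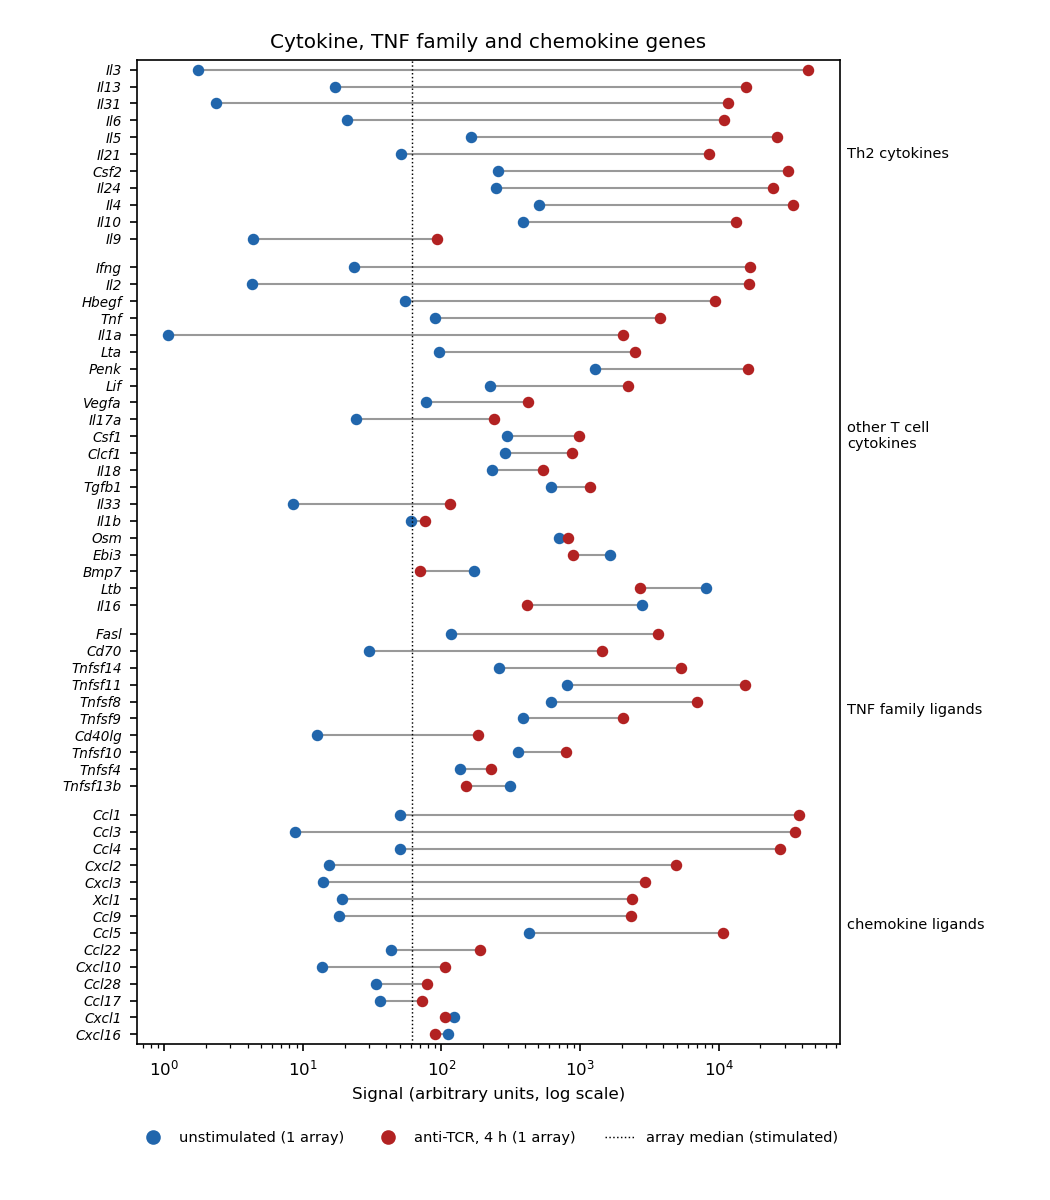
Signals of the described ligand genes (horizontal axis, arbitrary units, log scale) in unstimulated (blue) and anti-TCR stimulated (red) Th2-1st control cells, 1 array each, in order of floored ratio within each list. Red lies right of blue in all 11 Th2 cytokines and in 12 of 14 chemokines, and the blue points of Il3, Ccl3, Il2 and Ifng lie left of the dotted array median.

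The promoters of the leading ligand genes are shown to let the letters around their start sites be compared. They are the 6 genes of highest floored ratio among the ligand and transcription factor lists for which the table used gave a promoter, each from 250 bases before to 50 bases after the RefSeq start (build GRCm38.p6), 5′ to 3′ on the gene's strand. Capitals mark matches, on either strand, to the motifs searched. The motif of AP-1 was TGANTCA and that of factors bound to the cyclic AMP response element (CRE) was TGACGTCA. The NFAT core was searched as GGAAAA, so that its matches on the opposite strand appear as capital TTTTCC. A shorter NFAT core with the first letters of an AP-1 site 5 bases on, NF-kB and CArG were searched by their consensus. The EGR motif was GCGTGGGCG, the TATA box was searched with the letters TATAAA, and the GATA motif with the letters AGATAA. Il3 (chr11:54267230-54267529), Ccl1 (chr11:82179763-82180062), Ccl3 (chr11:83649329-83649628), Il2 (chr3:37125905-37126204) and Il13 (chr11:53634653-53634952) are on the minus strand and Ifng (chr10:118440796-118441095) is on the plus strand.
Il3: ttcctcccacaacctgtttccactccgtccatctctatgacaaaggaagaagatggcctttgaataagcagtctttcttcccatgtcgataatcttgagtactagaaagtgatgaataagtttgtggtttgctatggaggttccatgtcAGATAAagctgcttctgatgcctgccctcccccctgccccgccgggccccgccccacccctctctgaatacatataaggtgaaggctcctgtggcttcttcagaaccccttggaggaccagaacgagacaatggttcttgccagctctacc
Ccl1: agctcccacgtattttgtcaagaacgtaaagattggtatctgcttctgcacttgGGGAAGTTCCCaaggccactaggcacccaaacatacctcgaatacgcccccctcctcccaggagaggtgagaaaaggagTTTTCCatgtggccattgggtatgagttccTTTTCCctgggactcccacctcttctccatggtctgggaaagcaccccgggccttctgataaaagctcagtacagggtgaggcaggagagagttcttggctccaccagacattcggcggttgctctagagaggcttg
Ccl3: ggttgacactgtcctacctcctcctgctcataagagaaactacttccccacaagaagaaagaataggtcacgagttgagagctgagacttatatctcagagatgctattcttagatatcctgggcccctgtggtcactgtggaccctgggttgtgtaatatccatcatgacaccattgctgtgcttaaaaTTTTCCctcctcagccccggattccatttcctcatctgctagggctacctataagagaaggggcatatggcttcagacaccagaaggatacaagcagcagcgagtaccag
Ifng: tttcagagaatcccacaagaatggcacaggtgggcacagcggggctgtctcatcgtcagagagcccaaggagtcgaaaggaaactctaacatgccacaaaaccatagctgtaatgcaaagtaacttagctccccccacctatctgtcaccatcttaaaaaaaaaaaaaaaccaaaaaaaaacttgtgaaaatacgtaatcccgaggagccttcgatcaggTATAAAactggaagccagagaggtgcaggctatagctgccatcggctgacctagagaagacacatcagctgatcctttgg
Il2: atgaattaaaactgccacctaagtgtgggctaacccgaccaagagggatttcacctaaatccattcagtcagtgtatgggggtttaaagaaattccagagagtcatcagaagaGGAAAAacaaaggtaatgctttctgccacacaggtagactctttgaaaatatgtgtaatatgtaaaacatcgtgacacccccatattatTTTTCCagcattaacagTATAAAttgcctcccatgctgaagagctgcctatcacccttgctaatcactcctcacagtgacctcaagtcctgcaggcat
Il13: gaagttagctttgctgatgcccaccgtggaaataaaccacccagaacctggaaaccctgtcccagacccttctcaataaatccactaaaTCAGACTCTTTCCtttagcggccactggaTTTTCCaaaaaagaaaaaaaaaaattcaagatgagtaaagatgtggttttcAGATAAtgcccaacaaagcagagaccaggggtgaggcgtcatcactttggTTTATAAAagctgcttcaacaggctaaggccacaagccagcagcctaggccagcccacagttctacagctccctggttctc

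The NFAT core letters stood in 4 of the 6 windows. They were found 117 and 87 bases before the start of Ccl1, 60 before Ccl3, 137 and 48 before Il2 and 132 before Il13. Il13 also held the shorter core with the AP-1 letters, on the other strand, 161 bases before the start. Ccl1 held 2 overlapping NF-kB matches, 196 bases before the start on the gene's strand and 195 before it on the other. Il3 and Il13 held the GATA letters, 101 and 81 bases before their starts, and Ifng, Il2 and Il13 a TATA box 30, 31 and 29 bases before theirs. None of the 6 windows held the AP-1, CRE, EGR or CArG letters.

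Among all 27025 promoters with 1 window for each gene, 23.6% held the NFAT core, 7.93% the AP-1 motif, 8.18% NF-kB and 14.2% the TATA box. A promoter was found for 8990 of the genes described. Of the 934 higher genes with one, 8.35% held AP-1, against 5.13% of 1500 lower and 4.65% of 6556 other genes. For NF-kB these shares were 12.5%, 9.27% and 9.95%, for the TATA box 10.8%, 6.07% and 6.74%, and for the NFAT core 22.1%, 20.2% and 20.4%. The 100 genes of largest floored ratio had 75 promoters. Of these, 13 (17.3%) held AP-1, 23 (30.7%) the NFAT core, 12 (16.0%) NF-kB and 18 (24.0%) the TATA box. Over the 8990 promoters the shares were 5.12%, 20.5%, 10.1% and 7.05%. The EGR letters were in 0 of the 75 and in 1.28% of the 8990. AP-1 and TATA letters were thus more frequent among the higher than among the other genes described. The NFAT core was about as frequent among all higher genes, and more frequent among the 100 largest. These are counts of letters in short windows and show no binding.

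The transcription factors that respond to the TCR within minutes to hours were higher too. Of 15 described genes of the EGR and NR4A families and related immediate early genes, 9 were higher and 0 lower. The higher share was 60.0%, beside 10.7% of all genes, and the median log2 ratio was 1.85. Of the 9, 1 (Nr4a3) was below the array median without stimulation, so its direction was fixed by the rule. Nr4a3, Nr4a1 and Nr4a2, orphan nuclear receptors used as reporters of TCR signals, read 6.63 then 10215, 99.5 then 6860.0 and 69.9 then 3646. Egr2, which limits T cell activation, read 83.1 then 10922, and its relatives Egr3 and Egr1 207 then 7574 and 199 then 6287. The zinc finger factors Klf6 and Klf10 of the same list did not reach 2-fold and were on the other side, at log2 ratios of -0.63 and -0.94.

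Among 16 AP-1 factors, 9 were higher and 1 lower (56.3% and 6.25%, beside 10.7% and 16.7% of all genes). Of the 9, 3 were below the array median without stimulation, so their direction was fixed by the rule. Fosl1 read 26.9 then 943, Fos 120.3 then 1422 and Atf3, a stress factor that dimerises with Jun, 124 then 1444. Jun and Junb, the latter a factor of Il4 transcription, read 204 then 1032 and 237 then 1074. Jund and Batf did not reach 2-fold (0.41 and 0.96). Jdp2, a repressor of AP-1, was the lower gene (581 then 211).

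Of 14 NFAT, NF-kB and related factors, 9 were higher and 1 lower (64.3% and 7.14%, beside 10.7% and 16.7% of all genes). Of the 9, 1 was below the array median without stimulation, so its direction was fixed by the rule. Rel, the NF-kB subunit most tied to lymphocyte activation, read 80.9 then 1829, and Nfkb2 and Relb of the alternative NF-kB pathway 131 then 1035 and 107 then 755. Bhlhe40, a factor of cytokine production, read 866 then 5081. The NFAT genes differed among themselves, with Nfatc1 at a log2 ratio of 0.97, Nfatc2 at -0.97 and Nfatc3 at -1.29, of which Nfatc3 was past 2-fold.

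Gata3, the master regulator of Th2 cells, read 3312 then 4883, a log2 ratio of 0.56 that did not reach 2-fold and was near the spread of 0.63 among genes of like signal. Of 21 regulators of the Th2 programme, 4 were higher and 3 lower (19.0% and 14.3%, beside 10.7% and 16.7% of all genes), with a median of 0.25. The higher ones were Sox4, which opposes GATA3 (198 then 1302), Junb, Stat5a (595 then 2519) and Crem (662 then 2664). The lower ones were Nfil3 (3313 then 1285), Runx3 (1761 then 720.2) and Notch2 (2743 then 1282), and Stat6, which carries the IL-4 signal, was at 0.25. Among 11 described factors of other helper lineages, 5 were higher (45.5%, beside 10.7% of all genes), 2 of them from a signal below the array median. These were Ahr, the aryl hydrocarbon receptor (35.8 then 910.5), Eomes, Bcl6, the factor of follicular helper cells (185 then 599), Tbx21, the factor of Th1 cells (1290.1 then 3485), and Prdm1 (332 then 667). Stat4, which carries the IL-12 signal, was lower (941 then 290.2). Another probe set of Bcl6, below the array median, did not differ, and the mean over its probe sets gave a log2 ratio of 0.83. For Sox4 that mean was 0.97.

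Genes of signal feedback, inhibitors of the same signals among them, accompanied the activators. Of 36 feedback genes described, 24 (66.7%, beside 10.7% of all genes) were higher and 1 lower, with a median log2 ratio of 1.56. That share is not one of inhibitors alone, since the list also holds Pim1, Pim2, Nfkbiz, Bcl3, Gadd45b and Gadd45g. Rgs16, which shortens G protein signals, read 75.6 then 12106. Spry1 and Dusp4, inhibitors of the Ras-MAPK pathway, read 118 then 2715 and 199 then 4415, and Gadd45b 271 then 4989.7. The inhibitors of NF-kB, Nfkbia, Nfkbie and Nfkbib, read 4575 then 22219, 608 then 3100.2 and 521 then 1848. The lower gene was Dgka, a diacylglycerol kinase that dampens TCR signals (3508 then 1559). Dusp1, Socs1 and Rcan1 did not reach 2-fold, with log2 ratios of 0.043, 0.21 and -0.29.

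Among 17 proteins that control the decay of cytokine mRNAs, 3 were higher and 2 lower (17.6% and 11.8%, beside 10.7% and 16.7% of all genes). Zc3h12c of the Regnase family read 69.3 then 1172. The closely related Zfp36l1 and Zfp36l2, which both bind AU-rich elements, were on opposite sides (3176 then 18138 for the former and 9971 then 2976 for the latter). The mean over probe sets of Zfp36l2 was -0.90. Zfp36 itself read 359 then 356. Tob1, an anti-proliferative gene, was lower (1917 then 702) by its main probe set, and 0.052 on the log2 scale by the mean over both of its probe sets.

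On the cell surface, 17 of 27 activation and costimulatory receptor genes were higher and 1 was lower, with a median log2 ratio of 1.54. These shares were 63.0% and 3.70%, beside 10.7% and 16.7% of all genes. Of the 17, 3 were below the array median without stimulation, so their direction was fixed by the rule. Havcr2 (TIM-3) read 59.6 then 4844 and Cd200 80.8 then 3005. Pdcd1, the gene of the inhibitory receptor PD-1, and its ligands Cd274 and Pdcd1lg2 read 162 then 2209.7, 239 then 2636 and 155 then 4284, so that both sides of this pathway were higher. Cd83 read 27.1 then 1131, Ctla4 1179.6 then 4739.8 and Tnfrsf4 (OX40) 2378 then 17612. Cd69, an early activation marker, read 692 then 2016. Icos was the lower gene (10121 then 4919.6), and Cd28, the main costimulatory receptor, had a log2 ratio of -0.58.

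The TCR complex and its proximal signalling chain, 27 genes described, held 3 higher and 6 lower genes. These shares, 11.1% and 22.2%, were not far from the 10.7% and 16.7% of all genes described. Cd3d, Cd3e and Cd247 had log2 ratios between -0.26 and 0.0044, and Cd3g read 11586 then 7000.0. The higher genes included Malt1 (1929 then 5646) and Bcl10 (1555 then 3398), partners in the complex that links the TCR to NF-kB. Among the lower genes were Fyb, an adhesion adaptor (7184 then 1534), Pag1 (3422 then 874) and Csk (2479 then 823), an adaptor and a kinase that together restrain Src family kinases. By its other described probe sets Pag1 had log2 ratios of -0.82 and -0.12.

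Of 23 cytokine receptor genes described, 4 were higher and 6 lower (17.4% and 26.1%, beside 10.7% and 16.7% of all genes). The lower ones included Il7r, needed for survival of resting T cells (11646 then 3045), Tgfbr1 (4891 then 1449.6), Ifngr1 (2742 then 825) and Il4ra (1749 then 816). Il1r1, a receptor for IL-1, was higher (4.76 then 132). Il2ra and Il2rb, subunits of the IL-2 receptor, had log2 ratios of 0.45 and 0.39. The mRNA of the ligand differed more than that of the receptor for IL-2 (8.06 floored), IL-4 and IFN-gamma, and Ifngr1 and Il4ra were lower where Ifng and Il4 were higher.

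Genes of migration were mostly lower. Of 18 described chemokine receptor and homing genes, 10 (55.6%, beside 16.7% of all genes) were lower and 2 higher, with a median log2 ratio of -1.32. S1pr4 and S1pr1, receptors for sphingosine-1-phosphate of which S1pr1 guides T cells out of lymphoid organs, read 1872 then 228 and 488 then 96.3. Cxcr4, the receptor of CXCL12, read 1146 then 152, and Itga4, a subunit of the integrins that bind VCAM-1 and MAdCAM-1, 817 then 141. Selplg, the ligand of P-selectin, read 4518 then 989, and Ccr7, the receptor for entry to lymph nodes, 1242 then 324. Ccr3, the eotaxin receptor, and Ccr8, a receptor of Th2 cells, were higher at dim signals (3.63 then 108 and 70.1 then 154) and Ccr4 read 177 then 130.1.

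Genes of naive and quiescent T cells showed the same direction. Of 21 described, 11 (52.4%, beside 16.7% of all genes) were lower and 1, Slfn2, was higher (5242 then 19281). The median log2 ratio was -1.31. Of the 11, 2 were below the array median after stimulation, so their direction was fixed by the rule. Id3, an inhibitor of E proteins, read 1667 then 109, Pik3ip1, an inhibitor of PI3 kinase, 869.8 then 47.2, and Klf2, which maintains quiescence and homing receptors, 841 then 50.2. Txnip, which restrains glucose uptake, read 3706 then 314 and the cell cycle inhibitor Cdkn1b (p27) 3004 then 513. Foxo1 and Foxp1, which uphold quiescence, did not differ by as much as 2-fold (0.0051 and 0.18). Of the 8 GIMAP genes, GTPases of lymphocyte survival that lie in 1 cluster, 7 (87.5%, beside 16.7% of all genes) were lower. Gimap7 read 2597 then 299 and Gimap8 6391 then 2095, while Gimap5 had a log2 ratio of 0.94.

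The 15 genes of smallest floored ratio ran from -4.55 to -3.55. Ripor2, an inhibitor of RhoA, read 1449.8 then 43, and its other 3 probe sets described had log2 ratios from -3.46 to -1.27. Mxd4, which competes with MYC for its partner MAX, read 1380.1 then 68.4, and its other probe sets -3.46, -2.95 and -0.59. Mettl7a1 and Tmem86b read 1027 then 43.7 and 1028 then 43.8. The other probe sets of Tmem86b were below the array median on both arrays. Pdcd4, an inhibitor of translation, read 5231 then 433, and Sit1, an adaptor that inhibits TCR signalling, 1091 then 84. Tlr1, a Toll-like receptor, read 1729.8 then 124 and Itgb3, the integrin beta 3 subunit, 1907 then 163. Bbs9, Tmem71 and AB124611 had floored log2 ratios of -3.70, -3.67 and -3.74. None of these 15 genes belonged to the ligand or transcription factor lists.

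**Figure D3:**
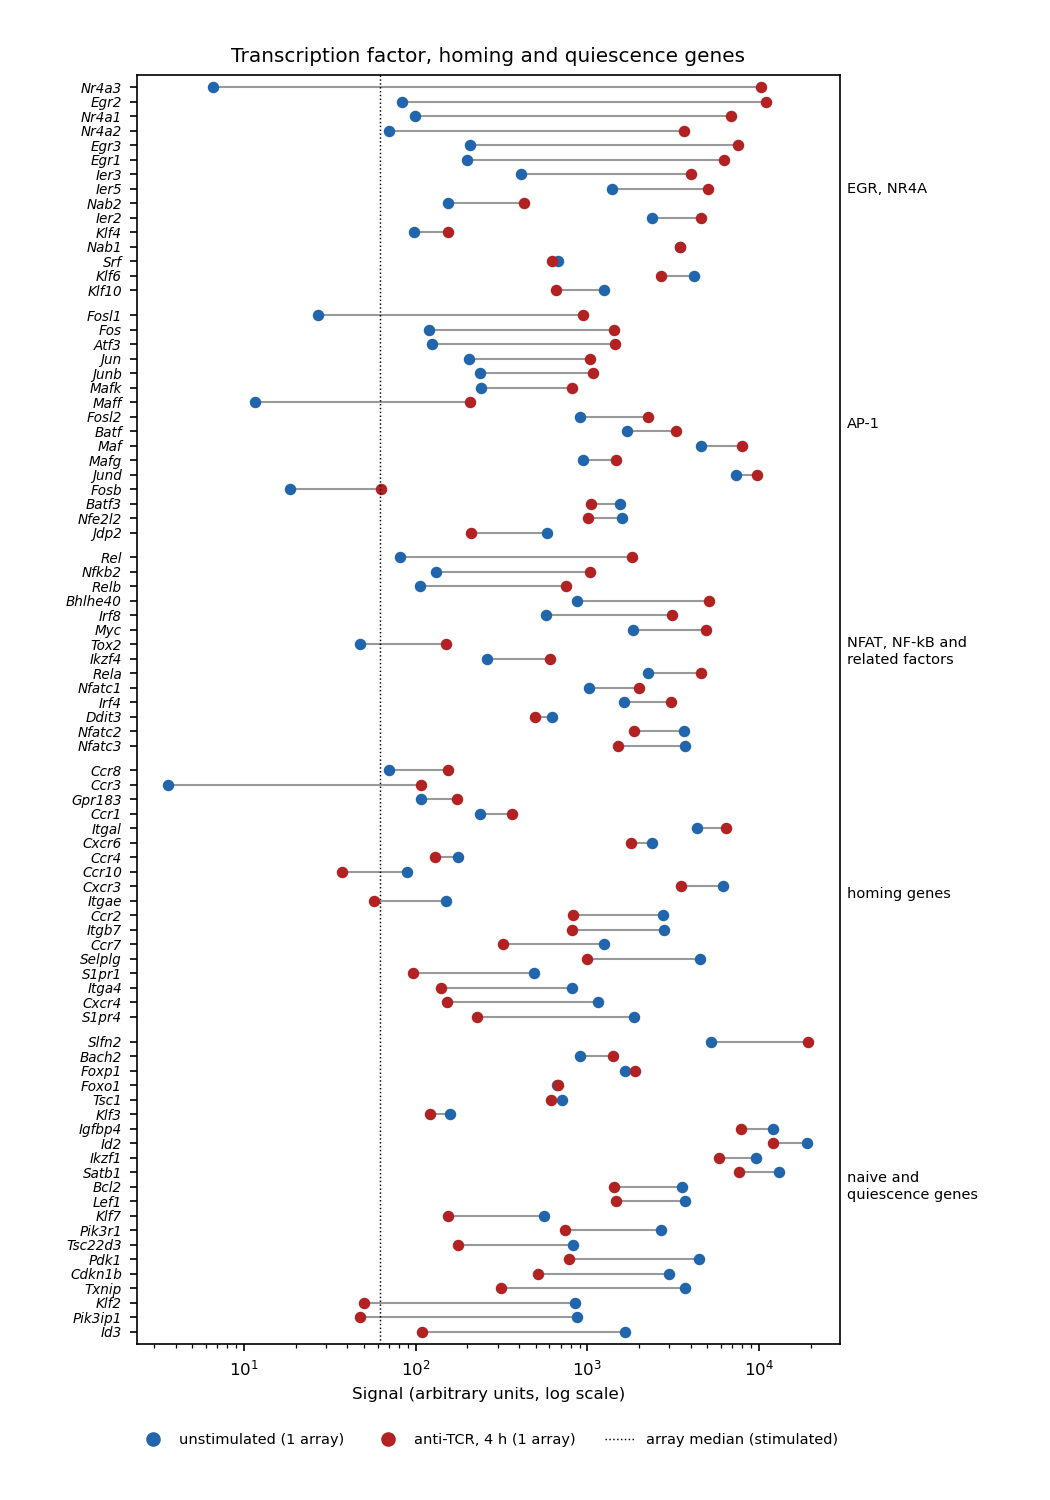
Signals of the described transcription factor, homing and quiescence genes (horizontal axis, arbitrary units, log scale) in unstimulated (blue) and anti-TCR stimulated (red) Th2-1st control cells, 1 array each, in order of floored ratio within each list. Red lies right of blue in 11 of 15 EGR, NR4A and related genes and left of it in 13 of 18 homing and 17 of 21 quiescence genes.

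Survival and death genes were mixed. Of 11 survival genes, 4 were higher and 1 lower (36.4% and 9.09%, beside 10.7% and 16.7% of all genes). The higher ones included Bcl2l1 (Bcl-xL, 589 then 1725), Traf1 (1616 then 4214) and Cflar, the inhibitor of caspase-8 (1306 then 3123). With the mean over probe sets the log2 ratios of Bcl2l1 and Cflar were 0.90 and 0.56, and another described probe set of Cflar was at -1.14. Bcl2 was lower (3553 then 1436) and Mcl1 read 10772 then 11445. Of 18 death genes, 4 were higher and 5 lower (22.2% and 27.8%, beside 10.7% and 16.7% of all genes). Fasl and Casp4 (327 then 2506) were higher, as was Bcl2l11 (BIM, 1238 then 4006), while Bad (758 then 228) and Apaf1 (2969.9 then 961) were lower. Among 13 described genes of cytotoxic granules, 4 were higher (30.8%, beside 10.7% of all genes). Nkg7 read 311 then 1922 and Prf1, the gene of perforin, 74.4 then 323. Gzmd (36.7 then 152) and Gzme (52.2 then 130) were below the array median without stimulation, so their direction was fixed by the rule. Gzma and Gzmb, granzymes far above the array median in unstimulated cells, did not reach 2-fold (11345 then 19928 and 17663 then 34136).

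Genes of growth differed together and by less than the ligands. All 47 described genes of ribosome biogenesis, the assembly of ribosomes in the nucleolus, had log2 ratios above 0, with a median of 1.18 and a range of 0.23 to 2.54. Of the 47, 31 (66.0%, beside 10.7% of all genes) were over 2-fold. Under quantile normalization 47 were again above 0. None of the 31 over 2-fold entered from a signal below the median. Rrp9 read 263 then 1533, Noc3l 445 then 1948, Wdr43 1296 then 4976 and Nle1 73 then 335. Myc, a known activator of such genes, read 1841 then 4939. The 31 cytosolic ribosomal protein genes described differed less, with a median of 0.44 that lay within the range of the hybridization controls and was 0.00 under quantile normalization, and Rps25 alone was over 2-fold (2288 then 5541).

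Of 37 genes of amino acid supply and the ATF4 pathway, 13 were higher and 1 lower. These shares were 35.1% and 2.70%, beside 10.7% and 16.7% of all genes. Of the 13, 2 were below the array median without stimulation, so their direction was fixed by the rule. Shmt1 of serine and glycine metabolism read 609 then 3459, Chac1, which degrades glutathione, 78.7 then 357, and the transporters Slc1a4 and Slc7a5 45 then 212 and 1703 then 4713. Ddit4 (REDD1), an inhibitor of mTORC1, was the lower gene (5963 then 630.3). All 25 genes of the unfolded protein response and protein folding in the endoplasmic reticulum had ratios above 0 (24 under quantile normalization), and 9 were over 2-fold, with Creld2 at 2182 then 7157, Manf at 8167 then 21366 and Hspa5 (BiP) at 13698 then 33385. The mean over the probe sets of Hspa5 was 0.91. Herpud1 read 1404 then 3629 and Xbp1, a transcription factor of this response, had a log2 ratio of 0.48.

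In glucose use, Hk2, a hexokinase, read 735 then 4692 and the lactate transporter Slc16a1 3514 then 12344. Pdk1, which keeps pyruvate from the mitochondria, was lower (4474 then 784), and 18 of 22 genes of the list did not pass 2-fold in either direction. Of 31 genes of cholesterol and fatty acid synthesis 4 were higher, Cyp51 (568 then 2218), Hsd17b7 (243 then 791), Insig1 (490.3 then 1451) and Acly (5002 then 11699), and 4 lower, among them Abcg1, which exports cholesterol (671 then 134). Each share was 12.9%, near the 10.7% of all genes that were higher and the 16.7% that were lower. Hsd17b7 was at 0.57 once probe sets with an x, s or a suffix were left out. None of 39 respiratory chain and 35 proteasome genes passed 2-fold in either direction. Their log2 ratios ran from -0.60 (Ndufb10) to 0.67 (Cycs) and from -0.62 (Psmb10) to 0.82 (Psmb7).

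Of 40 genes of the cell cycle, 1 was higher and 7 lower (17.5%, near the 16.7% of all genes), with a median of -0.42. The D cyclins differed, since Ccnd2 read 5928 then 20840.1 and Ccnd3 3108 then 458, and E2f2 was lower (2012 then 363). Replication genes such as Pcna (20928 then 21603) and Mcm5 (14592 then 12254) stayed within 2-fold. Among 27 described interferon response genes 2 were higher, the RNA sensor Ifih1 (228 then 3332) and Iigp1 (398 then 4434), and 3 lower, among them Ifit2 (762 then 199) and Oas3 (169.9 then 45.6). These shares, 7.41% and 11.1%, were below the 10.7% and 16.7% of all genes described. The 62 described zinc finger genes of the Zfp series held 12 lower and 2 higher genes, with Zfp946 at 1339.5 then 352 and Zfp53 at 1366 then 515, a share of lower genes (19.4%) near the 16.7% of all genes described. Under quantile normalization 6 of the 62 were lower.

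**Figure D4:**
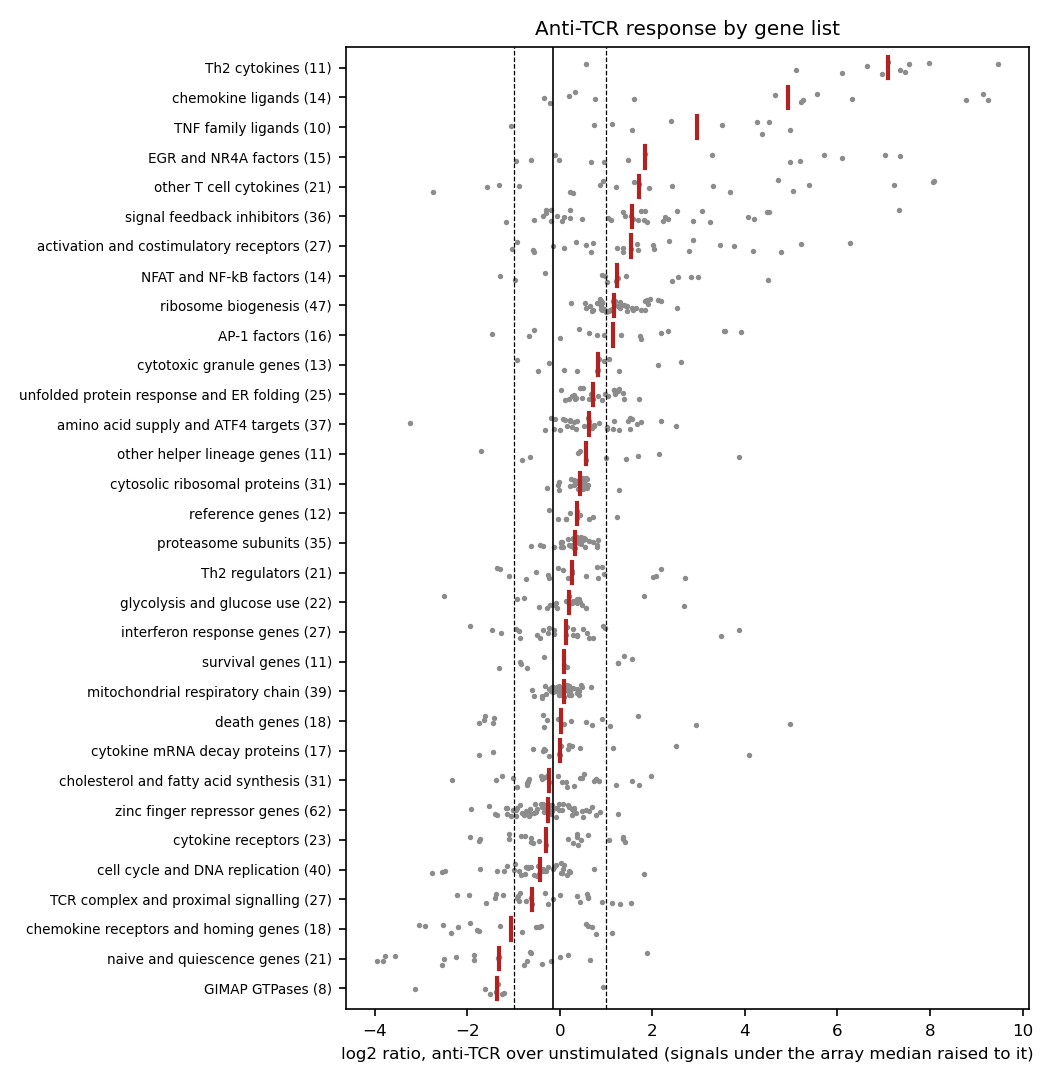
Floored log2 ratio (horizontal axis) of each described gene (grey points) by gene list, with the number of genes described in brackets and the list median as a red bar. The black line is the median of all genes described and dashed lines mark 2-fold. Medians run from -1.35 for GIMAP genes to 7.10 for Th2 cytokines, and most lists of metabolism lie between the dashed lines.

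The study names 17 genes as GATA3 targets of Th2 cells and 15 Th2 genes as non-targets. Of the targets 16 were described, 7 of them higher and 3 lower (43.8% and 18.8%, beside 10.7% and 16.7% of all genes). Beside Il4, Il5, Il13, Il24, Crem and Ccr8, Tmtc2 was higher (127 then 536), and Itgb3, Jdp2 and Nfil3 were lower. Gata3, Gzma and Cyp11a1, an enzyme of steroid synthesis (6026 then 10676), did not reach 2-fold. Of the non-targets 14 were described, 6 higher and 3 lower (42.9% and 21.4%). Dusp4 and Penk, the precursor of enkephalins (1290.4 then 16426), had the largest ratios, followed by Il1r2, a decoy receptor for IL-1 (292 then 780.3), F2r, a thrombin receptor (6309.6 then 14322), and Tanc2, at the threshold (463 then 929.9). Spry2 was past 2-fold from 27.8 to 72.5, a floored log2 ratio of 0.21. Lower were Ptgir, the prostacyclin receptor (1484 then 488), Plcd1 (179 then 56.7) and Oit3 (102 then 24.2), of which Oit3 had a floored log2 ratio of -0.72. Tanc2 was at 0.72 with the mean over probe sets. Genes on both sides of 2-fold were thus found in either class.

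The same stimulation of Th2-4th control cells is the comparison most like this one, and it shares no array with it. The cultures also differ in cycles of culture and in time, so culture and array cannot be told apart. After stimulation of Th2-4th cells 1522 of the same 11022 genes (13.8%) were over 2-fold higher and 2301 (20.9%) under 0.5-fold. Of the 1178 genes higher in Th2-1st cells, 832 (70.6%) were higher in Th2-4th cells as well, which is 54.7% of those higher there. Of the 1844 lower genes, 1314 (71.3%) were lower in both, which is 57.1% of those lower in Th2-4th cells. Across genes, which are not independent replicates, Pearson's r of the log2 ratios was 0.80 and Spearman's rho 0.77, over genes that share the array scaling. All 43 genes with a floored log2 ratio above 5 were over 2-fold higher in Th2-4th cells. The floored log2 ratios of Il3, Il4 and Il31 were 9.47, 6.11 and 7.54 in the Th2-1st pair, and in the Th2-4th pair they were 9.55, 5.98 and 7.70. The stimulated signals of Il3, 44252 and 55479, were near the highest of their arrays, 46410 and 58757. Its unstimulated signals were raised to the median in both cultures, so these ratios of Il3 had little room to differ. On the stimulated Th2-1st array 91 genes were within 2-fold of the highest signal.

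Some genes had ratios that differed between the cultures. They were chosen after their values were seen, as those of largest difference, and the differences were not tested. Klf2 went from 841 to 50.2 in Th2-1st cells, whereas the Th2-4th signals were 109 then 139, already low without stimulation. The Th2-1st signals of Myc were 1841 then 4939 and its Th2-4th signals 299 then 5218. For Rgcc, a regulator of the cell cycle, they were 5651 then 13321 and 1546 then 27179. For both genes the unstimulated signals were higher in Th2-1st cells. Ikzf3 (Aiolos), a lymphoid zinc finger factor, hardly differed in the Th2-1st pair (1056 then 1139) and was 128 then 1070.3 in the Th2-4th pair. In the other direction, Cd200 read 80.8 then 3005 against 35.8 then 428, Cxcl3 13.9 then 2964 against 8.92 then 429, and Cth, an enzyme of cysteine synthesis, 7.93 then 2629.7 against 2.29 then 336. Ribosome biogenesis genes had a median log2 ratio of 1.18 in the Th2-1st pair against 2.11 in the Th2-4th pair, and quiescence genes of -1.31 against -0.61.

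**Figure D5:**
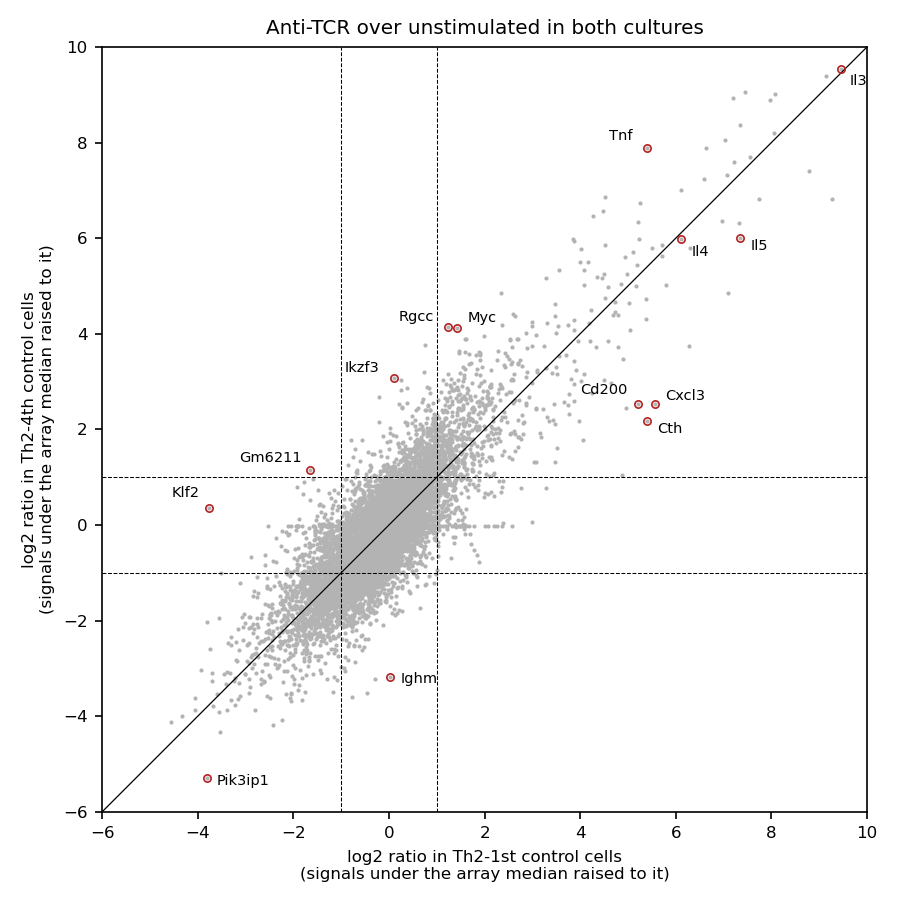
Floored log2 ratio of anti-TCR over unstimulated control cells in Th2-4th cells (vertical axis) against Th2-1st cells (horizontal axis), 1 point for each of the 11022 genes described. The line marks equal ratios and dashed lines 2-fold. Most genes lie along the line, Il3 at 9.47 and 9.55, while Klf2 (-3.77 and 0.36), Myc (1.42 and 4.12) and Cth (5.39 and 2.18) lie away from it. For Il3 both ratios run from the floor to a signal near the highest of the array.

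A second stimulated array of the Th2-1st culture, of cells with GATA3 siRNA, shares the unstimulated control array of the pair, so its values are given side by side only. Il3 read 47138 there beside 44252 with control siRNA, Il4 38027 beside 34734, Ccl1 40435 beside 38354 and Nr4a3 15916 beside 10215. The study's PCR, by contrast, found Il4 mRNA lower after GATA3 knockdown in Th2-1st cells. The highest signals of these arrays were 52104 with GATA3 siRNA and 46410 with control siRNA. Il3, Il4 and Ccl1 were thus among the brightest, and whether differences are compressed there was not tested. The signals of Il5 (909 beside 26465), Il13 (1506 beside 15757) and Il6 (863 beside 10942) were lower with GATA3 siRNA but above those of the unstimulated cells. Tnf (13831 beside 3803) was higher.

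Genes that lie beside each other in RefSeq order (GRCm38.p6) sometimes responded together. Of the described neighbours of higher genes, 202 of 1301 (15.5%) were higher, beside 10.7% of all genes described, and of the neighbours of lower genes 476 of 2172 (21.9%) were lower, beside 16.7%. There were 12 runs of at least 3 adjacent protein-coding genes that were all higher. One, on chromosome 11, held Csf2, Il3 and Acsl6, an acyl-CoA synthetase (0.944 then 266). Another, on chromosome 17, held the TNF family genes Tnfsf9 (387 then 2055), Cd70 and Tnfsf14. A run of 4 on chromosome 13 held the serpin genes Serpinb6b, Serpinb9, Serpinb9b and Serpinb1b, with Serpinb9, an inhibitor of granzyme B, at 349 then 8404. These serpin genes are similar in sequence, and how specific their probe sets are was not tested.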

How the data were processed

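Total RNA of the cells was labelled with a 3′ IVT kit and hybridized to Affymetrix mouse genome arrays. The authors deposited a linear signal intensity per probe set, 45101 for each array. They used the Affymetrix Expression Console. For its algorithm and version, nothing is given in the sources used here. The arrays were deposited scaled to a common trimmed mean. No detection call or background value was used, so an array's median served as the limit for dim signals.

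The platform annotation gave 34958 of these 1 gene, 932 several and 9211 none, and symbols of 34754 (99.4%) were updated through RefSeq. Ratios are log2 of the stimulated over the unstimulated signal, and 2-fold is the study's threshold. The number of arrays limits the precision, and with 1 per condition no test was run. The spread was the median absolute deviation multiplied by 1.4826, over the genes in each of 20 bins of signal. Named genes were those of the study's target and non-target genes past 2-fold, the 15 of largest and smallest floored ratio, up to 4 of each list by the same measure, Gata3 and Hprt. Others named in the text, such as Myc, Cd69, Nfatc1, Foxo1, Tbx21 and Ccr7, were chosen after their values were seen or to show what did not change. The members, the 40 gene lists and the comparisons were chosen with earlier results of these data known. List genes without a probe set naming them alone were not analysed here. Simulated log2 ratios with known changes were counted past 2-fold as a check. The filter, the floor and the list counts were not part of it. Alternatives were the mean over probe sets, probe sets with an x, s or a suffix left out, no filter, both signals above the median, a floor at the median, median centring, quantile normalization, the threshold of 10 to the power 0.5 and probe sets counted in place of genes. Promoters came from a RefSeq table of GRCm38.p6. Python 3.11.15 with numpy 2.4.6, pandas 2.3.3, scipy 1.17.1 and matplotlib 3.10.9 was used.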

Additional observations from a re-analysis of the deposited data

Results flagged for a closer look

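The predicted gene Gm6211 was past 2-fold in opposite directions in the cultures on the floored scale, the single gene of the 11022 described for which this held. It read 193 without stimulation and 29.7 after it in Th2-1st cells, a floored log2 ratio of -1.65, and 116 and 256 in Th2-4th cells, a ratio of 1.15. With GATA3 siRNA it read 322 in stimulated Th2-1st cells. The difference was not tested, and Gm6211 was chosen after its values were seen.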

How the results depend on the processing

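No paired analysis was possible because each condition is 1 array, and for the same reason no replicate could be left out. The count of higher genes was 1178 and that of lower genes 1844. They were 3191 and 3067 with no filter on low signals, 561 and 693 at the threshold of 10 to the power 0.5 and 2138 and 3358 where probe sets were counted. With both signals above the median 749 genes were higher and 1404 lower. Under the other 5 alternatives both counts stayed within 1.5 times, from 893 to 1263 higher and from 1520 to 1806 lower genes. Higher genes made up 39.0% of all genes past 2-fold and 51.0% with no filter.

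Of 40 list medians, 14 were past 2-fold and 8 of these stayed so in every alternative that gave a value. The median of chemokine ligands turned from 5.80 to -0.20 where both signals had to exceed the median, since that filter leaves out the genes dim in unstimulated cells. The mast cell and basophil list, with 1 gene described, went from -1.14 to 0.39 with no filter. Of 146 named genes past 2-fold, 126 stayed past it in the same direction in every alternative that gave a value. Tob1 went from -1.45 to 0.052 with the mean over its probe sets, where its second probe set is below the array median. Mxd4 went from -4.34 to -0.59 without its a-suffixed probe set, and Tmem86b from -4.55 to -0.67 and Pag1 from -1.97 to -0.43 with the mean over probe sets. Signals below the array median give ratios whose spread reached 2.43.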
